A study of Mus musculus with 24 samples.

Results

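The genes described are 9 targets of the peroxisome proliferator-activated receptors (PPARs) that are used when tissues burn fatty acids, namely *Pdk4*, *Cpt1a*, *Cpt1b*, *Angptl4*, *Ucp3*, *Acot1*, *Acot2*, *Plin2* and *Plin5*. They were chosen by symbol, as the rows whose Ensembl identifier carries 1 of these names in GENCODE release M21, and make up 9 of the 54532 genes counted in each sample. These genes and the related gene lists were chosen with earlier results of these data known. Their counts beside those of all genes are therefore description and no test of the lists. RNA-Seq of polyA+ RNA covered heart, stomach, muscle and tongue, with 3 control and 3 SN-011 samples from each tissue, 24 samples in all. All mice, controls included, were *Trex1*-/-, lacking a DNA exonuclease whose loss activates the cGAS-STING pathway of DNA sensing. SN-011 is a small-molecule antagonist of STING, and the comparison asks how each tissue's transcripts differed when the pathway was blocked. The labels give a dose of 5 mg/kg, 3 days weekly for 4 weeks, with untreated controls, whereas the study's methods describe 10 mg/kg daily for 2 weeks from 1 month of age against vehicle. Both accounts hold these tissues, each with SN-011 and control samples. The study also sequenced kidney RNA, which is not among the samples used here. The labels do not say whether the samples of a group came from separate mice, so the p-values measure the spread between these samples. Whether tissues with the same replicate number came from 1 mouse is not stated either.

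PPARs are nuclear receptors that bind fatty acids and, as heterodimers with retinoid X receptors, activate genes for the uptake, storage and oxidation of lipid. In fasting, lipid released from adipose tissue raises this program in muscle and heart while glucose is spared. PDK4 phosphorylates pyruvate dehydrogenase and so keeps pyruvate out of the citric acid cycle. CPT1A and CPT1B, the liver-type and muscle-type carnitine palmitoyltransferases, admit long-chain fatty acids to mitochondria. ACOT1 in the cytosol and ACOT2 in mitochondria split fatty acyl-CoA, and UCP3 is a carrier of the inner mitochondrial membrane. PLIN2 and PLIN5 coat lipid droplets, and ANGPTL4 is a secreted inhibitor of lipoprotein lipase. The name of the group therefore covers control of fuel entry and lipid storage as well as oxidation itself.

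PPARs recognise 2 copies of the half-site AGGTCA in the same orientation with 1 base between them. The RefSeq promoter windows of GRCm38.p6, from 250 bases before to 50 bases after a start site, held an entry for 7 of the 9 genes. With up to 2 mismatches over both half-sites and both strands searched, a match was found in the windows of *Ucp3* and *Plin2* and in none of the other 5 genes with an entry. Of all 32851 windows, 3.86% held such a match, and 13 held a perfect one. The part of these windows upstream of transcription is shown for *Ucp3* and *Plin2*, which carry a match, and for *Pdk4*, which does not and had the highest level of the 9 in heart, muscle and tongue. Capitals mark the matched stretch of 13 bases. Each sequence is read 5′ to 3′ on the strand of its gene, at chr7:100472741-100472989 (plus strand), chr4:86670061-86670309 (minus strand) and chr6:5496310-5496528 (minus strand) in turn. The *Ucp3* match starts 51 bases before the RefSeq start site, and that of *Plin2* lies on the opposite strand with its outer end 225 bases before the start.
Ucp3: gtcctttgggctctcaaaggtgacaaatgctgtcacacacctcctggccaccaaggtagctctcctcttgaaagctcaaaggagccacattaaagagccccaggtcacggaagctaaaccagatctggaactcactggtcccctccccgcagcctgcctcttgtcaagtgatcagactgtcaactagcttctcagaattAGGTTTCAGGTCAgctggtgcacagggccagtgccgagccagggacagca
Plin2: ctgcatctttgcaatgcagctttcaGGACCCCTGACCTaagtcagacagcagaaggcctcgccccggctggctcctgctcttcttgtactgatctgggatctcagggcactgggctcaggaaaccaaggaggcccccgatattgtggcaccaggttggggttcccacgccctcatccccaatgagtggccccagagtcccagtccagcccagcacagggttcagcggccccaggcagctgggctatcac
Pdk4: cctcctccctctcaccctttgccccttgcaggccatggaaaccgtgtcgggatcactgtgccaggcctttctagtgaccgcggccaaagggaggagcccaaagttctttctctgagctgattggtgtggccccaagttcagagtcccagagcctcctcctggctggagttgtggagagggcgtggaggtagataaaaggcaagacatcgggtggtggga

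Reads per sample were of similar depth, with 14253416 to 18443329 counts, so that 3 counts, taken as the smallest abundance that can be shown, came to 0.163 to 0.210 CPM (counts relative to the library total), and this limit reflects counting error alone. Only 11546 genes had any count in SN-011 replicate 2 of the muscle, where all other samples had 19798 or more. In each tissue, control replicate 1 had at least 3060 counts of *Xist* and at most 3 of the Y-linked *Ddx3y*, whereas the other samples had at most 20 of *Xist* and at least 825 of *Ddx3y*. A single library with this female pattern thus sat among the controls of each tissue, so these controls came from more than 1 mouse, and sex and the library cannot be told apart. Summed cardiomyocyte markers in the heart were 22354 to 32574 CPM in the controls, lowest in replicate 3, and 32269 to 39392 CPM after SN-011, with 6 of 6 log2 fold changes positive. Skeletal fibre markers in the muscle were 128310 to 141197 CPM and 148986 to 202161 CPM, without overlap, and the part of either list in the results was not tested. In the tongue, skeletal fibre markers summed to 28720, 23766 and 17332 CPM in control replicates 1, 2 and 3, and to 24729 to 28449 CPM after SN-011. Squamous epithelium markers there summed to 12579, 37664 and 54536 CPM in these controls, and to 16061 to 23883 CPM after SN-011. The groups overlapped for both lists, and their part in the tongue results was not tested. Some control libraries also held stomach transcripts. The 4 parietal cell markers summed to 385, 78.9 and 388 CPM in control replicate 2 of the heart, muscle and tongue and to 22.2, 19.3 and 128 CPM in control replicate 3, against at most 4.10 CPM in any SN-011 library of these tissues and 1535 to 5578 CPM in the stomach. Gastric chief and mucous cell markers summed to 2292, 503 and 2270 CPM in control replicate 2 of these tissues and to 244, 227 and 1768 CPM in control replicate 3, against at most 38.8 CPM after SN-011, and the part of stomach RNA in the results was not tested. *Trex1* had 0 counts in all 24 samples, but shares its locus with *Atrip*, so this does not show the genotype. Among interferon-induced genes of the pathway, *Cxcl10* fell by 1.49 on the log2 scale in the heart (SE 0.24, n = 3, adjusted p = 0.0332). It was also lower in stomach (-1.59, adjusted p = 0.0964), muscle (-2.28, 0.413) and tongue (-2.04, 0.282), without passing 0.05. In the heart *Ifit3* (-0.51, adjusted p = 0.153) and *Zbp1* (-0.66, 0.137) had overlapping groups. Both were negative in the other tissues too, and neither passed in any tissue.

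Most of the 9 genes were higher after SN-011 in every tissue, and none passed the adjusted threshold of 0.05. The log2 fold change of SN-011 over control, from edgeR's quasi-likelihood test on counts scaled by TMM, was positive for 8 of 9 genes in heart, 6 of 8 in stomach, 7 of 9 in muscle and 8 of 9 in tongue. The median over these genes was 0.90, 1.06, 0.95 and 0.70 in that order, beside -0.01, 0.00, -0.08 and -0.01 over all genes tested, of which 48.6%, 50.2%, 44.5% and 48.5% were positive. After Benjamini-Hochberg adjustment across each tissue's genes, 0 of the 9 genes passed 0.05 in any tissue, where 0.848% of all genes in heart, 0.0% in stomach, 0.0141% in muscle and 0.0% in tongue did so. At an unadjusted p under 0.05, 6 of 9 were higher in heart, 3 of 8 in stomach, 3 of 9 in muscle and 3 of 9 in tongue, and 0 were lower. The share of all genes that were higher at this level was 10.8%, 13.2%, 8.96% and 5.17%. The exact negative binomial test of edgeR placed 5, 2, 2 and 1 of the genes past an adjusted 0.05 as higher, against 2.85%, 6.58%, 1.87% and 0.392% of all genes, and DESeq2 placed 4, 2, 2 and 1, against 4.35%, 7.5%, 3.3% and 0.725%. These calls were *Pdk4*, *Cpt1b*, *Ucp3*, *Acot1* and *Plin5* in heart, *Pdk4* and *Angptl4* in stomach, *Acot2* and *Plin5* in muscle and *Acot1* in tongue, and DESeq2 differed by leaving out *Pdk4* in the heart.

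**Figure D1:**
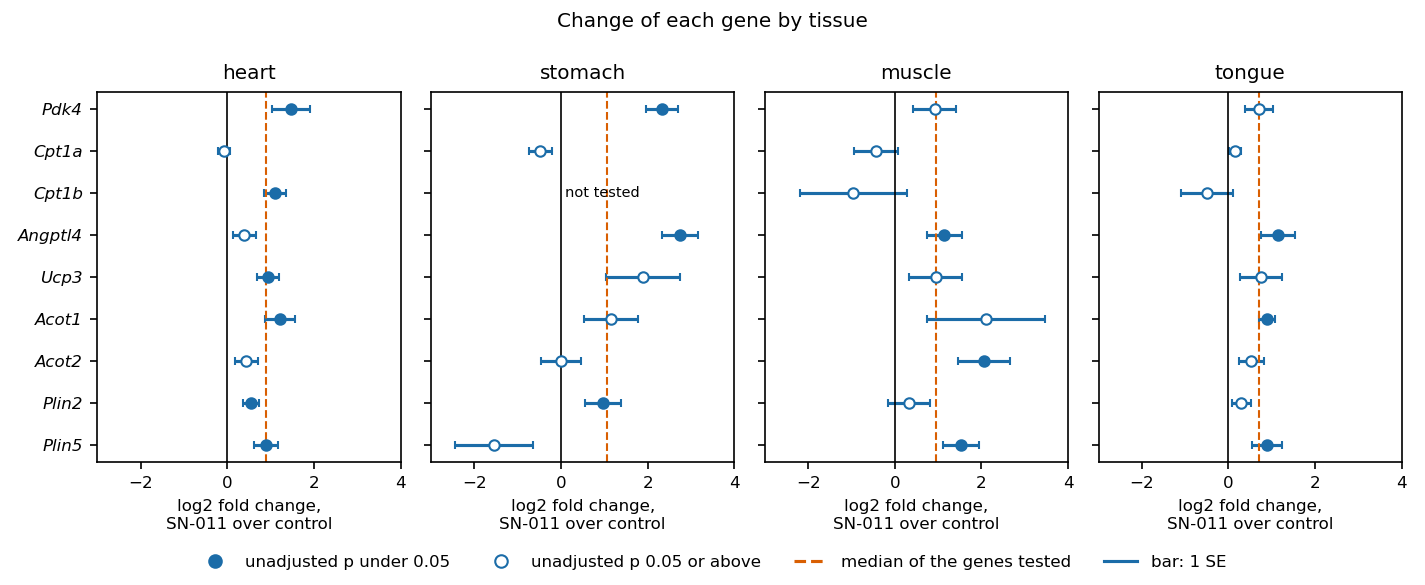
Log2 fold change of SN-011 over control on the horizontal axis for each of the 9 genes in each tissue, with bars of 1 SE from edgeR's quasi-likelihood fit (3 samples per group). Filled points have an unadjusted p under 0.05 and the dashed line is the median of the genes tested, 0.90 in heart, 1.06 in stomach, 0.95 in muscle and 0.70 in tongue, and most points lie to the right of 0 in all 4 panels.

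Read as single values, 17 of the 36 gene and tissue combinations had groups that did not overlap, with SN-011 above the controls in 14 and below them in 3. An exact two-sided permutation test of 3 samples against 3 cannot give a p below 0.1, which each of these 17 reached. Among the genes tested, every SN-011 sample lay above every control for 4 in heart, 4 in stomach, 2 in muscle and 3 in tongue, where 14.1%, 17.8%, 14.7% and 9.4% of all genes did so. Every SN-011 sample lay below every control for 0, 2, 1 and 0 genes in that order. Over all genes this held for 2114 of 16151, 2586 of 17031, 2806 of 14198 and 1390 of 16587. The control samples had a shared order of levels across the genes. Control replicate 1 was the highest control in 27 of the 36 combinations and control replicate 3 the lowest in 30, including all 9 genes in the heart. A joint level was computed for the 8 genes tested in all 4 tissues, as the mean of their log2 CPM after centring and scaling within each tissue. In the heart it was 0.23, -0.24 and -1.57 in the controls and 1.03, 0.20 and 0.36 after SN-011. The tongue had 0.02, -0.30 and -1.57 in the controls and 0.55, 0.78 and 0.52 after SN-011, with no overlap. In the stomach, control replicate 1 at 0.60 lay above all SN-011 samples, at 0.24 to 0.37, and the other controls were at -0.55 and -0.90. In the muscle, SN-011 replicate 2 at -0.56, the library with few genes, lay among the controls, at -1.11 to 0.37, and the other SN-011 samples were at 0.99 and 0.77.

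**Figure D2:**
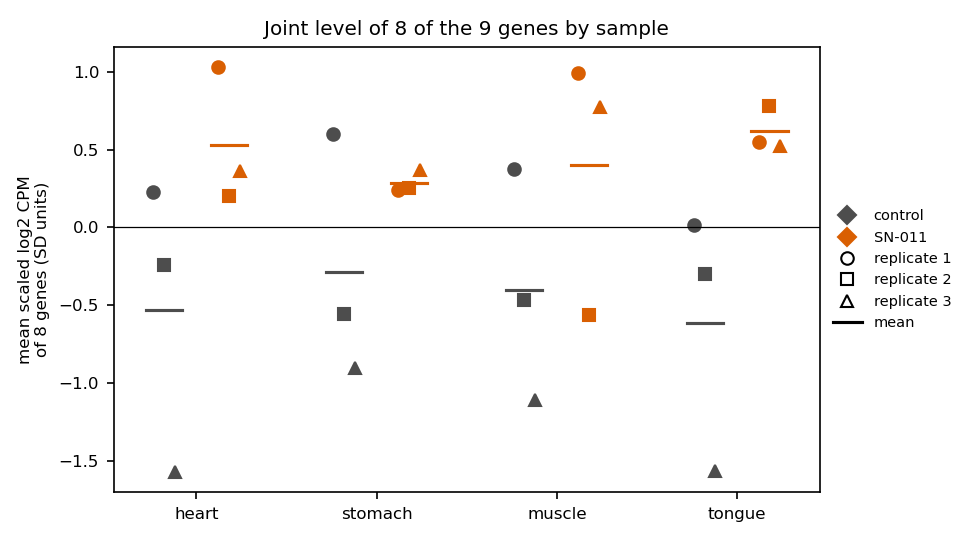
Mean scaled log2 CPM of 8 of the 9 genes (vertical axis, in SD units within each tissue) in each of the 24 samples, with controls in grey, SN-011 in orange, the replicate number as the marker shape and the group mean as a bar. Control replicate 3 is the lowest sample in all 4 tissues, and in the tongue all SN-011 samples, at 0.52 to 0.78, lie above all controls.

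*Pdk4* (ENSMUSG00000019577, chromosome 6 of GRCm38, 5483351 to 5496309, minus strand) codes for the kinase that shuts pyruvate dehydrogenase, and had the highest level of the 9 genes in the muscle, heart and tongue. In the heart, its controls had 995, 849 and 248 CPM and its SN-011 samples 2432, 1823 and 1525 CPM, a log2 fold change of 1.47 (SE 0.43, n = 3, adjusted p = 0.113). In the stomach, the controls had 42.9, 18.2 and 17.7 CPM and the SN-011 samples 123, 142 and 131 CPM, a log2 fold change of 2.33 (SE 0.38, adjusted p = 0.0618). SN-011 samples of both tissues lay above every control. In the muscle, the controls had 3404, 1900 and 762 CPM and the SN-011 samples 4262, 3244 and 3955 CPM, with control replicate 1 inside the SN-011 range and a log2 fold change of 0.92 (SE 0.49, adjusted p = 0.458). In the tongue, controls of 899, 1090 and 416 CPM lay below SN-011 samples of 1366, 1397 and 1151 CPM, a log2 fold change of 0.70 (SE 0.33, adjusted p = 0.423). In the tongue control replicate 3 lay far below the other controls. Stomach *Pdk4* passed the threshold under 7 of 15 alternatives, which were other settings or fits leaving out a sample. Its adjusted p was 1.4e-05 with edgeR's exact test, 1.02e-05 with DESeq2 and 0.0259 without control replicate 1. It did not pass without control replicate 2 (0.204), SN-011 replicate 1 (0.224) or SN-011 replicate 3 (0.241), among others.

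*Angptl4* (ENSMUSG00000002289, chromosome 17, 33773750 to 33781830, minus strand), whose product restrains lipoprotein lipase at the capillary wall, differed most in the stomach. Stomach controls had 23.3, 9.67 and 9.36 CPM and SN-011 samples 115, 69.2 and 98.1 CPM, with no overlap and a log2 fold change of 2.74 (SE 0.41, n = 3, adjusted p = 0.0618), the largest of the tested values. Tongue controls had 44.7, 16.1 and 19.9 CPM and SN-011 samples 44.9, 59.0 and 75.1 CPM, a log2 fold change of 1.15 (SE 0.40, adjusted p = 0.352). The highest tongue control and the lowest SN-011 sample nearly met, and both carried replicate number 1. In the muscle, controls of 46.3, 23.7 and 25.0 CPM overlapped SN-011 samples of 93.2, 38.3 and 78.0 CPM at a log2 fold change of 1.14 (SE 0.40, adjusted p = 0.284). In the heart, controls of 133, 79.0 and 56.0 CPM overlapped SN-011 samples of 134, 99.6 and 118 CPM at 0.39 (SE 0.27, adjusted p = 0.425). Without control replicate 1, *Angptl4* in the tongue had a log2 fold change of 1.73 and an adjusted p of 0.00502, and in the stomach 3.28 and 0.0298. Of 15 alternatives, *Angptl4* passed in 1 in the tongue and in 7 in the stomach.

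Stomach values of these genes stood beside differences in marker genes of other cell types. The 5 squamous epithelium markers summed to 123 to 262 CPM in the stomach controls and 493 to 1539 CPM after SN-011, the parietal cell markers to 4319 to 5578 and 1535 to 3348 CPM, and the 8 adipocyte markers to 99.3 to 267 and 285 to 351 CPM, none of them overlapping. The defining adipocyte marker *Adipoq* overlapped, with 3.47, 0 and 2.73 CPM in the controls and 2.18, 7.26 and 1.17 CPM after SN-011. Their part in the stomach results was not tested, and in these bulk samples fewer cells of a type and less RNA per cell cannot be told apart.

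The genes for fatty acid entry into mitochondria had lower values than most of the others, except *Cpt1b* in the heart and the stomach. *Cpt1a* (ENSMUSG00000024900, chromosome 19, 3322334 to 3385733, plus strand) had 70.1 to 96.8 CPM in heart controls and 70.4 to 85.4 CPM after SN-011, a log2 fold change of -0.08 (SE 0.14, n = 3, adjusted p = 0.765). In the stomach its controls had 248, 203 and 201 CPM and its SN-011 samples 130, 177 and 162 CPM, all below the controls, at -0.48 (SE 0.26, adjusted p = 0.294). Muscle and tongue values were -0.44 (SE 0.50) and 0.16 (SE 0.14), with overlapping groups in both. *Cpt1a* is also 1 of the genes in a list the study built as a signature of the cGAS-STING pathway. Stomach was the tissue with most *Cpt1a*, and heart control replicate 2, which held parietal cell transcripts, had 85.6 CPM beside 96.8 and 70.1 CPM in the other controls.

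*Cpt1b* (ENSMUSG00000078937, chromosome 15, 89416405 to 89425863, minus strand) could be counted on only part of its length. Of its 3372 exon bases, 2744 are shared with *Gm44502*, annotated on the same strand, which had 0 counts in all samples, so that the values of *Cpt1b* are low and come from its remaining bases. Heart controls had 5.71, 7.53 and 4.71 CPM and SN-011 samples 14.0, 9.14 and 15.1 CPM, with no overlap and a log2 fold change of 1.10 (SE 0.26, n = 3, adjusted p = 0.0767). That was the lowest adjusted p among the 9 genes in the heart, and it was 0.0157 with edgeR's exact test and 0.0405 without control replicate 2. Heart *Cpt1b* passed in 4 of 15 alternatives, and its adjusted p was 0.923 in the joint fit of all tissues. In the muscle, counts of 76, 93 and 83 in the controls stood against 46, 0 and 69 after SN-011, a log2 fold change of -0.95 (SE 1.24, adjusted p = 0.767), and the sample at 0 was the library with few genes. The tongue had 2.14 to 9.60 CPM in the controls and 2.49 to 5.24 CPM after SN-011, a log2 fold change of -0.49 (SE 0.60). In the stomach, where *Cpt1b* did not pass the filter on low counts, it had 0, 2 and 0 counts in the controls and 17, 11 and 7 after SN-011. Skeletal fibre markers in the same stomach libraries summed to 348, 4.37 and 5.46 CPM in the controls and 214, 163 and 113 CPM after SN-011, and their part in the *Cpt1b* values was not tested.

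The acyl-CoA thioesterase genes *Acot1* (ENSMUSG00000072949, chromosome 12, 84009490 to 84018371, plus strand) and *Acot2* (ENSMUSG00000021226, chromosome 12, 83987861 to 83993873, plus strand) are neighbours and close copies. Of the 150-base windows in their annotated transcripts, 209 were identical between them, which is 5.5% of those of *Acot1* and 10.2% of those of *Acot2*, and counts of uniquely mapped pairs can lose or misplace reads there. *Acot1* was higher in all SN-011 samples than in all controls of the heart, stomach and tongue. Heart controls had 13.7, 17.0 and 6.58 CPM and SN-011 samples 41.4, 22.9 and 21.9 CPM, a log2 fold change of 1.22 (SE 0.35, n = 3, adjusted p = 0.108). Tongue controls had 25.6, 33.7 and 23.0 CPM and SN-011 samples 49.2, 56.9 and 47.0 CPM, a log2 fold change of 0.89 (SE 0.18, adjusted p = 0.263), which had the smallest SE among the tongue values except that of *Cpt1a*. Stomach controls were more spread, at 28.2, 14.5 and 3.21 CPM against 41.6, 29.7 and 30.0 CPM after SN-011, a log2 fold change of 1.15 (SE 0.62, adjusted p = 0.285). In the muscle, SN-011 samples had 288, 1 and 255 counts of *Acot1* against 87, 36 and 22 in the controls, and without the library with 1 count the log2 fold change was 2.68 with an adjusted p of 0.034, against 2.10 (SE 1.36, adjusted p = 0.538) with it.

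*Acot2* differed most in the muscle, where every SN-011 sample lay above every control. Muscle controls had 41.6, 20.5 and 9.28 CPM and SN-011 samples 145, 55.1 and 97.1 CPM, a log2 fold change of 2.06 (SE 0.60, n = 3, adjusted p = 0.224). The adjusted p was 0.0306 with edgeR's exact test and 0.0408 in a joint fit of all tissues. Muscle *Acot2* passed in 3 of 15 alternatives, over which the adjusted p went up to 0.706. In the heart the groups overlapped, at 51.6 to 95.5 CPM in the controls and 75.7 to 144 CPM after SN-011, with a log2 fold change of 0.44 (SE 0.27). Stomach means were 15.5 ± 10.3 CPM (SD, n = 3) in the controls and 15.5 ± 4.03 CPM after SN-011, and tongue means were 24.4 ± 7.71 and 35.3 ± 8.47 CPM. Thus the cytosolic and mitochondrial copies stood at different values in the stomach, 1.15 for *Acot1* and 0.00 for *Acot2* on the log2 fold change scale, with SEs of 0.62 and 0.46. The difference between these genes was not tested.

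*Ucp3* (ENSMUSG00000032942, chromosome 7, 100472990 to 100486432, plus strand) was higher after SN-011 in all 4 tissues and separated the groups in heart and stomach. Heart controls had 103, 106 and 51.8 CPM and SN-011 samples 171, 145 and 184 CPM, a log2 fold change of 0.94 (SE 0.25, n = 3, adjusted p = 0.092). Muscle controls ranged over 647, 280 and 93.5 CPM, whereas SN-011 samples had 703, 569 and 691 CPM, a log2 fold change of 0.95 (SE 0.62, adjusted p = 0.541). Tongue controls of 312, 137 and 75.6 CPM likewise overlapped SN-011 samples of 213, 342 and 330 CPM at 0.75 (SE 0.48, adjusted p = 0.53). In both tissues the highest control was replicate 1, and without it the tongue value was 1.47 with an adjusted p of 0.019. No other of the 15 alternatives passed for *Ucp3* in the tongue. In the stomach *Ucp3* was near the floor, with 9, 2 and 3 counts in the controls and 27, 12 and 21 after SN-011.

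The lipid droplet coats are described side by side, and the difference between them was not tested. *Plin5* (ENSMUSG00000011305, chromosome 17, 56111601 to 56117596, minus strand), which joins droplets to mitochondria in oxidative tissue, had 49.9, 21.9 and 17.0 CPM in muscle controls and 101, 71.2 and 85.3 CPM after SN-011, with no overlap and a log2 fold change of 1.54 (SE 0.41, n = 3, adjusted p = 0.205). In the heart, controls of 156, 106 and 69.3 CPM met SN-011 samples of 241, 224 and 151 CPM at 0.90 (SE 0.28, adjusted p = 0.124). In the tongue, 70.2, 60.9 and 32.5 CPM stood against 106, 132 and 65.4 CPM, at 0.89 (SE 0.34, adjusted p = 0.374). The stomach ran the other way at a very low level, with 22, 13 and 12 counts in the controls and 1, 9 and 7 after SN-011, a log2 fold change of -1.55 (SE 0.90, adjusted p = 0.317). *Plin2* (ENSMUSG00000028494, chromosome 4, 86648386 to 86670060, minus strand), the coat found in most cell types, had overlapping groups in every tissue. Its log2 fold changes were 0.54 (SE 0.19) in heart, 0.97 (SE 0.41) in stomach, 0.33 (SE 0.48) in muscle and 0.29 (SE 0.22) in tongue. In the muscle, *Plin2* had 88.2, 40.4 and 39.9 CPM in the controls and 96.8, 32.5 and 82.6 CPM after SN-011, and the adipocyte gene *Adipoq* had 77.7, 1.36 and 20.2 CPM and 87.6, 13.9 and 67.9 CPM in the same samples. The highest *Adipoq* libraries, control replicate 1 and SN-011 replicates 1 and 3, were also the highest for *Plin2* and for *Angptl4*, and the part of adipocyte RNA in these values was not tested.

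**Figure D3:**
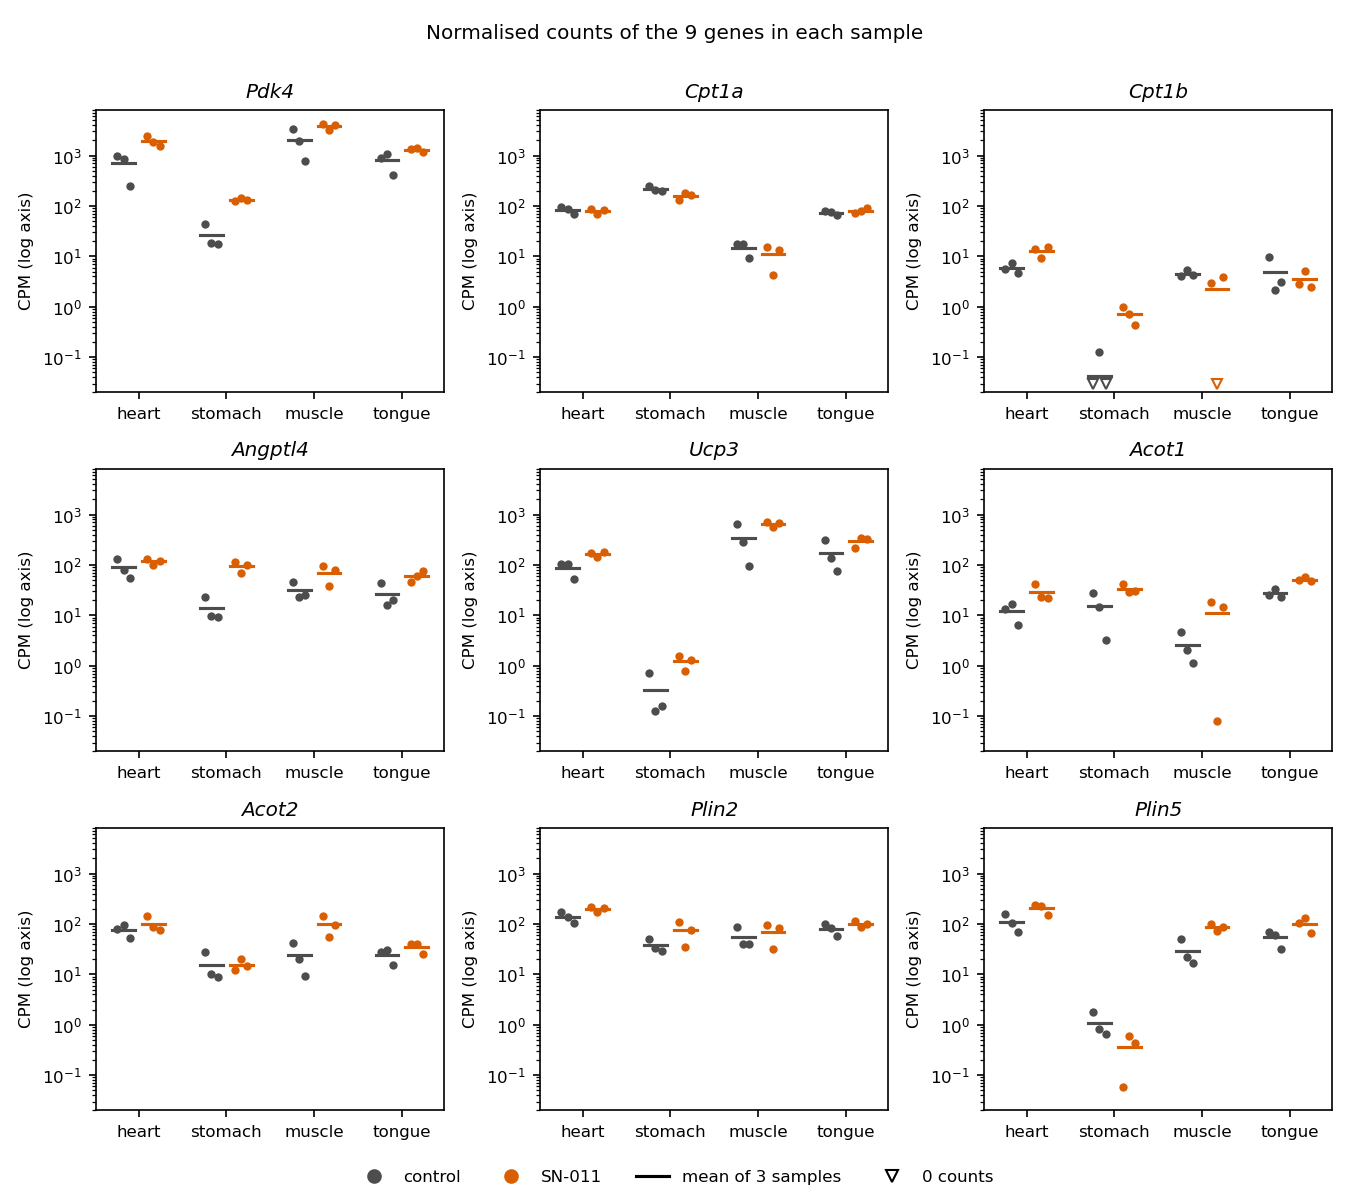
CPM scaled by TMM (vertical axis, log scale) of each of the 9 genes in every sample of each tissue, with controls in grey, SN-011 in orange, points in the order of replicate number and bars at the mean of 3 samples, and open triangles for samples with 0 counts. SN-011 points sit above all control points for *Pdk4* in the heart, stomach and tongue and for *Angptl4* in the stomach, while those of *Cpt1a* overlap or lie below the controls.

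The change after SN-011 was compared between tissues for each gene, by the interaction term of a joint fit of all 24 samples, which treated them as independent. With same-numbered samples of a treatment taken as a block across tissues, 3 genes passed in place of 1. They passed for stomach minus muscle, where 775 of all 19731 genes were higher and 515 lower, and for heart minus stomach (179 and 129). Without the block, 1 gene passed in 1 of the 6 pairs of tissues. *Plin5* differed between stomach and muscle by -3.04 on the log2 scale (SE 0.81, adjusted p = 0.0291), where 6.95% of all genes passed. The other pairs had 0 of the 9 genes past the threshold, against 2.01% of all genes for heart and stomach, 0.00507% for heart and muscle, 0.0% for heart and tongue, 0.821% for stomach and tongue and 0.0355% for muscle and tongue. *Angptl4* came nearest among the rest, with a difference of -2.31 (SE 0.63) between heart and stomach at an adjusted p of 0.0591, which was 0.0428 with DESeq2 size factors and 0.018 without control replicate 1 of every tissue. A p that misses the threshold does not show that the tissues responded alike. Without muscle SN-011 replicate 2, *Angptl4*, *Cpt1b*, *Acot2* and *Plin5*, 4 of the genes, differed between some pair of tissues, and the share of all genes that passed was then 5.72% for heart and stomach, 8.19% for stomach and muscle and 3.96% for stomach and tongue.

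Levels in the control samples placed the 9 genes in different tissues. In TPM, transcript abundance corrected for gene length, *Pdk4* had 1550 ± 1021 in the muscle, 532 ± 239 in the tongue, 520 ± 309 in the heart and 14.2 ± 3.39 in the stomach (SD, n = 3). Its neighbours muscle and tongue differed in the joint fit (adjusted p = 0.00143), as did heart and stomach (1.69e-06), and tongue and heart did not pass (0.889). *Ucp3* had the same order of the highest tissues, with 292 ± 242 TPM in the muscle, 132 ± 99.8 in the tongue, 72.2 ± 25.7 in the heart and, lowest, 0.187 ± 0.132 in the stomach. Of its neighbours only tongue and heart did not pass (adjusted p = 0.21). *Plin5*, *Plin2*, *Acot2* and *Angptl4* were highest in the heart, at 139 ± 63.0, 103 ± 32.0, 88.6 ± 23.8 and 66.5 ± 33.6 TPM. The heart did not pass against the next tissue for any of these 4, namely tongue for *Plin5* (61.1 ± 24.6 TPM, adjusted p = 0.0633) and *Plin2* (53.7 ± 17.4, 0.137) and muscle for *Acot2* (29.2 ± 20.2, 0.237) and *Angptl4* (23.99 ± 9.73, 0.302). *Acot1* was highest in the tongue, at 16.2 ± 3.39 TPM, and no neighbours in its order passed, down to 1.77 ± 1.24 TPM in the muscle, although muscle and tongue themselves differed (adjusted p = 0.0304).

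*Cpt1a* had its highest level in the stomach, at 58.7 ± 12.8 TPM, followed by 28.8 ± 5.98 in the heart, 22.0 ± 3.24 in the tongue and 5.24 ± 1.69 in the muscle. Heart and tongue did not pass (adjusted p = 0.534), and stomach and heart (0.00366) and tongue and muscle (0.00311) did. The muscle-type *Cpt1b*, counted on part of its length, had 4.58 ± 0.877 TPM in the heart, 3.57 ± 0.559 in the muscle, 3.49 ± 3.04 in the tongue and 2 counts in all in the stomach, with only the stomach differing from its neighbour. Its TPM was taken over all 3372 exon bases, of which only 628 are not shared with *Gm44502*. The TPM of *Cpt1b* is therefore too low and cannot be set beside that of *Cpt1a*. Over the 9 genes, heart against stomach had 7 higher and 1 lower (42.5% of all genes passed), stomach against muscle 1 higher and 7 lower (51.6%), and stomach against tongue 1 higher and 5 lower (36.9%). Heart against muscle had 1 higher and 2 lower (33.7%), heart against tongue 2 higher and 0 lower (29.1%), and muscle against tongue 3 higher and 2 lower (38.1%). Scaling bore on comparisons with the muscle, since library size alone in place of TMM moved the median of all genes for heart minus muscle from 0.11 to 0.94 on the log2 scale, and 6 of the 9 genes were then higher in the heart.

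Among the receptors, *Pparg*, the isoform of fat cells, was lower and *Ppard* higher in some tissues, with none past the adjusted threshold. *Ppara*, the main receptor of fatty acid oxidation in heart and liver, had 8.16, 7.18 and 3.16 CPM in heart controls and 6.25, 7.43 and 8.20 CPM after SN-011, and at most 5.43 CPM in any muscle or tongue sample. *Ppard* had 29.2, 26.9 and 30.2 CPM in muscle controls and 59.2, 53.5 and 51.5 CPM after SN-011, a log2 fold change of 0.93 (adjusted p = 0.0764), with no overlap. It was also separated in the heart, at 37.7 to 39.8 and 45.0 to 49.3 CPM, whereas tongue and stomach groups overlapped. *Pparg* had 107, 113 and 62.7 CPM in stomach controls and 7.89, 46.6 and 35.5 CPM after SN-011 (log2 fold change -1.65, adjusted p = 0.133). It was also below the controls in the tongue, at -0.93 (adjusted p = 0.304). *Ppargc1a*, the PPAR coactivator that drives mitochondrial genes, had 83.5, 52.4 and 52.3 CPM in heart controls and 145, 110 and 98.1 CPM after SN-011 (0.91, adjusted p = 0.0776), and was above all controls in the muscle as well. *Lpin1*, a coactivator of PPARs and an enzyme of lipid synthesis, rose in the heart by 0.82 (SE 0.14, adjusted p = 0.0383), from 83.6, 78.3 and 66.3 CPM to 142, 146 and 116 CPM, and lay above all controls in the other 3 tissues too.

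Wider lists of the pathway, compiled by function with earlier results of these data known, mostly had medians nearer 0 than the 9 genes. Of 17 genes of mitochondrial beta-oxidation, 17 had positive log2 fold changes in the heart (median 0.35), 16 in the muscle (0.26), 13 in the tongue (0.11) and 3 in the stomach (-0.52), with 0 past the adjusted threshold in any tissue. Peroxisomal and microsomal oxidation and ketogenesis had positive values for 10 of 10 genes tested in the heart (median 0.34) and 3 of 11 in the stomach (-0.21). Thus in the stomach the genes of oxidation itself lay mostly below 0 while *Pdk4* and *Angptl4* lay above 2. Fatty acid uptake and binding had positive values for 8 of 8 genes in heart and muscle, 6 of 8 in stomach and 7 of 8 in tongue, with medians of 0.58, 0.75, 0.47 and 0.54. Lipid droplet and lipolysis genes had medians of 0.52, 0.06, 0.73 and 0.17 in heart, stomach, muscle and tongue. Within this list *Plin3* had the lowest p in the muscle, with 42.9, 37.5 and 43.4 CPM in the controls and 82.9, 73.1 and 75.4 CPM after SN-011 (0.90, adjusted p = 0.0764). Fatty acid synthesis ran lower, with negative values for 7 of 10 genes in heart, 8 in stomach, 8 in muscle and 6 in tongue, at medians of -0.32, -0.19, -0.67 and -0.17. Paralogs and other fuel-switch genes had medians of 0.18, 0.22, 0.36 and 0.03, and 0 passed.

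Glucose use and the clock had members past the threshold in the heart. Of 10 genes of glucose use, *Pfkfb2*, which raises the glycolytic activator fructose-2,6-bisphosphate, rose in the heart by 0.91 (adjusted p = 0.0281), from 34.9 to 48.6 CPM in the controls to 76.6 to 84.2 CPM. *Slc2a4*, the insulin-regulated glucose transporter, had 40.9, 26.6 and 33.5 CPM in stomach controls and 113, 80.9 and 77.4 CPM after SN-011 (1.43, adjusted p = 0.0657). *Pdp2*, the phosphatase that reverses PDK4, had 9.45, 6.85 and 3.73 CPM in muscle controls and 40.6, 52.1 and 33.5 CPM after SN-011 (2.65, adjusted p = 0.0764), and overlapping groups in the other tissues. The kinase and the phosphatase of pyruvate dehydrogenase were both at higher values in the muscle, *Pdk4* by 0.92. Among 13 clock genes, *Nr1d1*, a repressor that itself cycles with the time of day, fell in the heart by 1.30 (adjusted p = 0.0444) and was below all controls in the muscle and the tongue, where its log2 fold change was -2.37 (adjusted p = 0.221). *Per2* had 5.65, 12.5 and 9.15 CPM in stomach controls and 31.5, 42.6 and 65.8 CPM after SN-011 (2.35, adjusted p = 0.0618), and *Cry1* 7.39, 9.45 and 16.0 CPM in tongue controls and 26.3, 26.4 and 29.4 CPM after SN-011 (1.32, adjusted p = 0.263). The hour at which tissues were taken is not given in the sources used here, and its part in the values of the 9 genes was not tested.

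The list of fasting and glucocorticoid genes had median log2 fold changes of 1.19 in heart, 1.06 in stomach, 1.40 in muscle and 0.82 in tongue. In the heart 13 of its 14 genes were positive, beside 48.6% of all genes. There 4 of the 14 passed the adjusted threshold as higher, where 84 of all 16151 genes did so. *Sesn1*, a FOXO and p53 target that restrains mTORC1, rose by 1.16 (SE 0.12, adjusted p = 0.0111), from 90.1 to 104 CPM in the controls to 200 to 243 CPM. *Klf15*, a glucocorticoid-induced regulator of fasting metabolism, rose by 1.25 (adjusted p = 0.0182), and *Trim63*, the muscle ubiquitin ligase MuRF1, by 1.31 (adjusted p = 0.0281). *Mt1*, a metal-binding protein induced by glucocorticoids, rose by 1.56 (adjusted p = 0.0403). In the muscle *Trim63* had 2307, 440 and 419 CPM in the controls and 4986, 4838 and 4269 CPM after SN-011, and *Sesn1* 124, 56.8 and 39.9 CPM and 333, 306 and 299 CPM, with no overlap for either. *Zbtb16*, a glucocorticoid receptor target, had 1.05, 0.437 and 0.963 CPM in stomach controls and 9.13, 7.65 and 8.60 CPM after SN-011 (3.37, adjusted p = 0.0618). Other values of the list ran differently. *Mt1* in the stomach had 4380, 1701 and 715 CPM in the controls and 789, 1627 and 1477 CPM after SN-011 (-0.80, adjusted p = 0.485), *Zbtb16* in the muscle was at 0.02, and 5 of the 14 genes were negative in the stomach. In *Sesn1*, *Klf15* and *Trim63*, control replicate 1 of the muscle was again the highest control.

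**Figure D4:**
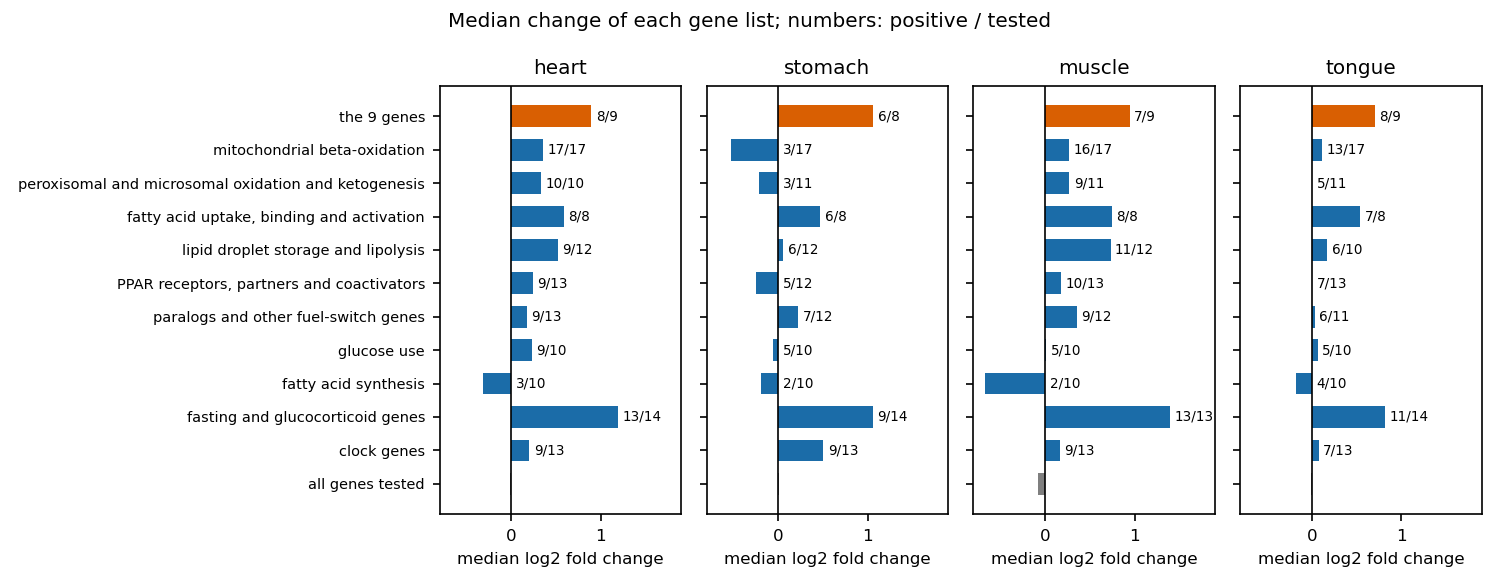
Median log2 fold change of SN-011 over control (horizontal axis) for the 9 genes in orange, 10 lists of related genes in blue and all genes tested in grey, in each tissue, with the number of genes above 0 of those tested beside each bar. The 9 genes and the fasting and glucocorticoid genes have the largest medians in all 4 tissues, and mitochondrial beta-oxidation lies above 0 in the heart, muscle and tongue and at -0.52 in the stomach.

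Genes outside the 9 were ranked by Pearson's r with the joint level over the 24 samples, among 13190 genes tested in all tissues, as a description of likeness across samples that share 4 tissues and their libraries. *Tacc2* (r = 0.927), *Cry2* (0.919), *Atad3a* (0.899), *Fbxo31* (0.884) and *Plin4* (0.884) were the 5 most alike. The 8 genes that made up the level had r of 0.457 for *Cpt1a* and 0.737 to 0.898 for the others, with *Pdk4* the highest. *Tacc2*, coding for a coiled-coil protein of the centrosome, had 391, 392 and 198 CPM in heart controls and 1123, 981 and 793 CPM after SN-011 and rose by 1.56 (adjusted p = 0.0402). *Plin4*, a further lipid droplet coat, had 271, 208 and 114 CPM in heart controls and 410, 440 and 457 CPM after SN-011 (1.14, adjusted p = 0.0764), and in the stomach 34.5, 4.68 and 13.4 CPM and 116, 64.2 and 70.0 CPM (2.25, adjusted p = 0.0973). In both genes control replicate 3 of the heart was the lowest heart sample, as it was for all of the 9. Genes ranked by likeness to the joint level tend to share this by the way they were picked.

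Leaving out 1 sample at a time kept most of the 9 genes positive in each tissue, 8 to 9 in heart, 5 to 7 in stomach, 7 in muscle and 8 to 9 in tongue. The number that were higher at an unadjusted p under 0.05 went from 5 to 7 in heart, 2 to 6 in stomach, 2 to 5 in muscle and 2 to 5 in tongue. The upper ends came from leaving out control replicate 1, the library with the female pattern, which left 7, 6, 5 and 5 genes, where 8.82%, 14.5%, 7.7% and 13.3% of all genes were higher at this level. Without it 0.638%, 0.29%, 0.398% and 4.41% of all genes passed the adjusted threshold as higher, and 0, 2, 1 and 3 of the 9 did so. Control replicates 2 and 3 were those whose heart, muscle and tongue libraries held stomach transcripts. Without replicate 2, 6, 3, 2 and 2 genes were higher at an unadjusted p under 0.05, against 12.6%, 9.95%, 4.05% and 2.82% of all genes. Without replicate 3, usually the lowest control, 5, 3, 2 and 2 genes were, against 7.5%, 14.3%, 4.13% and 4.56%, and the median over the genes was 0.64 in the heart, 0.52 in the muscle and 0.39 in the tongue. Red blood cell markers also had 5 of 5 log2 fold changes positive in every tissue, at a median of 1.06 in heart, 1.11 in stomach, 1.32 in muscle and 1.55 in tongue. Their summed CPM overlapped between the groups in heart (492 to 1395 and 1373 to 2506), stomach and tongue, and was separated only in the muscle. Control replicate 1 was the highest control for this sum in each tissue. The part of these markers in the result was not tested.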

How the data were processed

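PolyA+ RNA of 24 tissue samples was sequenced by the authors, and the deposited values are whole-number read counts per Ensembl gene, 1 file per sample, neither normalised nor pooled. The submitters' processing notes name HISAT2, HTSeq and mm10, whereas the study's methods name featureCounts, and which made the counts was not settled here. Genes were matched to GENCODE M21, and TPM was computed from the counts and exon lengths. Totals were 14253416 to 18443329 counts.

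Within each tissue, genes were kept by filterByExpr (minimum count 10, total 15), scaled by TMM and tested with the quasi-likelihood test of edgeR 4.0.16 (prior count 0.125, limma 3.58.1, R 4.3.3), SN-011 against control, 3 samples each, and p-values were adjusted by Benjamini-Hochberg across the genes of the fit, at a threshold of 0.05. A joint fit of all 24 samples gave differences between tissues. DESeq2 1.42.0, edgeR's exact test, other scalings and filters, a replicate block and fits leaving out samples were alternatives. Single values were tested by exact two-sided permutation over 20 relabellings. The scripts were tested on simulated data. Other software was Python 3.11.15, pandas 2.3.3, numpy 2.4.6, scipy 1.17.1 and matplotlib 3.10.9.

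The 9 genes and the lists were chosen with earlier results of these data known. Named besides the 9 were the PPARs and *Ppargc1a*, list genes past the threshold, the 3 list genes of lowest p in each tissue, and the 5 genes most alike over the samples. Promoter windows came from RefSeq (GRCm38.p6).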

Additional observations from a re-analysis of the deposited data

Results flagged for a closer look

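The change of *Plin5* after SN-011 differed between the stomach and the muscle, by -3.04 on the log2 scale (SE 0.81, adjusted p = 0.0291, interaction term of edgeR's quasi-likelihood fit). *Plin5* was higher in 3 of 3 muscle SN-011 samples than in all controls and lower in 3 of 3 stomach SN-011 samples, where it had 1 to 22 counts per library. It passed also with DESeq2 size factors (0.0241), library size alone (0.0378) and same-numbered samples of a treatment as a block across tissues (0.00765). The same held without muscle SN-011 replicate 2 (0.0256) and without control replicate 1 of every tissue (0.0292). With at least 10 counts required in every sample, *Plin5* was not tested.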

How the results depend on the processing

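The number of the 9 genes past the adjusted threshold was 0 in each tissue and depended on the settings. Numbers in brackets are the genes that passed as higher, of all those tested. In the heart it was 6 with no filter on low counts (700 of 30288), 4 with DESeq2 (702 of 16138) and 5 with the exact test (461 of 16151). Leaving out a sample it was 0 to 1, with *Cpt1b* passing without control replicate 2 (379 of 16599). In the stomach it was 2 with no filter (864 of 27444) and with at least 10 counts in every sample (104 of 14158). It was also 2 with DESeq2 (1277 of 17016) and with the exact test (1120 of 17031), and 3 in the joint fit (1321 of 19731). Leaving out a sample it was 0 to 2, with *Pdk4* and *Angptl4* passing without control replicate 1 (52 of 17959). In the muscle it was 2 with DESeq2 (468 of 14180) and the exact test (266 of 14198), and 1 in the joint fit (196 of 19731). Leaving out a sample it was 0 to 2. *Plin5* passed without control replicate 1 (58 of 14570), and *Angptl4* and *Acot1* without SN-011 replicate 2 (537 of 14903). In the tongue it was 1 with DESeq2 (120 of 16560) and the exact test (65 of 16587). Leaving out a sample it was 0 to 3, with *Angptl4*, *Ucp3* and *Acot1* passing without control replicate 1 (756 of 17142). With the replicate number as a block within a tissue it was 1 in the heart (126 of 16151) and 2 in the stomach (159 of 17031). The numbers mark no shared animal in the labels. Same-numbered control and SN-011 samples of a tissue did not deviate together (mean correlation -0.05 in heart, 0.06 in stomach, 0.04 in muscle and -0.31 in tongue). This does not show whether same-numbered samples of different tissues shared an animal. Leaving out a sample, the median log2 fold change ranged over 0.64 to 1.05 in heart, 0.77 to 1.903 in stomach, 0.52 to 1.52 in muscle and 0.39 to 0.79 in tongue. The number of genes differing between tissues in their change was 1. It was 3 with DESeq2 size factors, with library size alone, or with same-numbered samples of a treatment as a block across tissues. It was 2 with at least 10 counts or without control replicate 1 of every tissue, and 4 without muscle SN-011 replicate 2. For stomach minus muscle, all genes passing as higher and lower were 956 and 675 of 19731 with DESeq2 size factors. They were 1510 and 274 with library size alone, 775 and 515 with the block, and 903 and 873 of 9624 with at least 10 counts. Without control replicate 1 they were 751 and 339 of 20291. For heart minus stomach, in the same order, they were 215 and 227, 112 and 484, 179 and 129, 395 and 457, and 106 and 286. Control levels differed for 9 genes, and for 5 with at least 10 counts, where fewer genes were tested. Of 32 calls on control levels, 2 were lost with DESeq2 size factors, 4 with library size alone (*Ucp3* and *Angptl4* between muscle and tongue, *Acot2* and *Plin2* between stomach and muscle) and 1 without control replicate 1 of every tissue. Reversed values were *Cpt1a* in the heart (0.014, range -0.21 to 0.014 leaving out a sample) and *Cpt1b* in the tongue (0.42, range -0.89 to 0.42), both without control replicate 1, and *Acot2* in the stomach with DESeq2 size factors (-0.0399), no filter (-0.0015), DESeq2 (-0.0414), the joint fit (-0.0416), and without control replicates 2 (-0.23) or 3 (-0.28) or SN-011 replicate 2 (-0.24), with a range of -0.28 to 0.67 leaving out a sample. Within tissues there was no call to lose. The cause of the changes was not tested. With 3 samples per group, no exact permutation p can pass 0.05.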

Other observations

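The genes here were chosen from the lists of fasting and lipid uptake after their values were seen, and so support nothing in the results above. *Fkbp5*, a co-chaperone induced by glucocorticoids, had 109, 36.6 and 33.6 CPM in heart controls and 154, 184 and 210 CPM after SN-011 (log2 fold change 1.61, adjusted p = 0.0876), and log2 fold changes of 1.37 in stomach, 1.40 in muscle and 1.51 in tongue. *Fbxo32*, the muscle ubiquitin ligase atrogin-1, was above all controls in all 4 tissues, with 61.9, 31.9 and 54.0 CPM in stomach controls and 136, 140 and 118 CPM after SN-011 (1.42, adjusted p = 0.0713). *Lpl*, coding for lipoprotein lipase, the enzyme that ANGPTL4 inhibits, was above all controls in the heart (0.55, adjusted p = 0.113) and the muscle (1.04, adjusted p = 0.237) and at 0.00 in the stomach. None of these passed the adjusted threshold.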
